A study of Mus musculus with 10 samples.

Results

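The collagen genes are 44 of the 55401 gene rows of the count data, found as every symbol made of Col, a number, the letter a and a second number. By the protein they encode, 11 belong to the fibrillar collagens, 6 to collagen IV of the basement membrane and 27 to other collagens. The reads came from bulk RNA sequencing of 10 tumors of B16F10, a mouse melanoma cell line, taken on day 15 after subcutaneous injection into female C57BL/6J mice aged 9 to 12 weeks. In 5 tumors (KO) the injected cells were *Mir25* knockout cells made by CRISPR-Cas9, and in the other 5 (NTC) they carried a non-targeting control. All mice of both groups received the treatment named Comb. It joins GVAX, a vaccine of 1000000 irradiated B16 cells that secrete GM-CSF (days 1 and 4), with the antibody αPD-1 (days 6, 9 and 12, 10 mg/kg each). The injected cell number is 500000 in the methods but 50000 in the labels. Only the injected cells were edited, so the host cells of the tumor keep their own *Mir25*. The methods describe both lentiviral guide vectors and electroporated Cas9 protein with isolation of single clones, and which of them gave the cells of these tumors, as a pool or 1 clone, is not stated. The *Mir25* row was listed at 0 reads in 10 of 10 libraries and gave no check of the labels.

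Collagens are the main proteins of the extracellular matrix. Their chains wind around each other into long helices, which assemble outside the cell. Fibrillar collagens, such as collagens I, III and V, form the fibers of connective tissue, and fibroblasts are their main source. Collagen IV forms the sheet of the basement membrane under endothelium and epithelium. Collagen VI forms beaded filaments, collagens XII, XIV and XVI attach to the surface of fibrils, and collagens XV and XVIII lie at basement membranes. In tumors, dense fibrillar collagen is known as a mark of the fibroblast-rich stroma.

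The microRNA disrupted in KO cells reads as follows in RefSeq, with its seed (bases 2 to 8) in capitals. Of the 34 collagen genes with enough reads to test, 6 hold its seed match GTGCAAT in the longest annotated 3′ UTR (GENCODE M21, GRCm38). The sites are shown because these are the collagen messages that miR-25-3p could pair with by its seed, and the match is in capitals.
miR-25-3p: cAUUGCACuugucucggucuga
Col1a1, chr11:94952383-94952389, + strand: tattcctcaGTGCAATtgtgttgc
Col1a2, chr6:4540834-4540840, + strand: cagagcagtGTGCAATatgatcca
Col5a1, chr2:28037707-28037713, + strand: cacaagaatGTGCAATaatttgga
Col11a1, chr3:114219786-114219792, + strand: tataaatttGTGCAATgttaggtt
Col12a1, chr9:79600247-79600253, - strand: ccaggttttGTGCAATgattgtgt
Col27a1, chr4:63333680-63333686, + strand: gctttcgatGTGCAATattagaaa

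A seed match was thus present in 17.6% of the tested collagen genes and in 7.76% of the 12891 tested genes with an annotated 3′ UTR. The median 3′ UTR was 1080 bases in the former and 1199 bases in the latter. Altogether 6 mature mouse miRNAs share this seed. The match is a description of sequence and shows no pairing. For comparison, the seed match TGGTGCT of the miR-29 family, which is known to bind collagen messages, was present in 19 of the 34 (55.9%), against 15.8% of tested genes. The miR-29a-3p sequence and its matches in *Col3a1* and *Col4a1* read as follows.
miR-29a-3p: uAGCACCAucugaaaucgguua
Col3a1, chr1:45348982-45348988, + strand: atgtctcaaTGGTGCTataataaa
Col4a1, chr8:11199762-11199768, - strand: gtcacaacaTGGTGCTactccccc

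In the 300-base RefSeq promoters (GRCm38.p6), searched on both strands, the box CCAAT occurred in 12 of the 35 collagen promoters found in the table (34.3%) and in 37.9% of all 27025 promoters. The letters TATAAA occurred in 14.3% and 14.2%. Neither motif therefore set the collagen promoters apart from the others by these shares.

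The KO libraries held 23243707 to 27006075 reads on genes and 4 of the NTC libraries 24145795 to 28682130. NTC replicate 1 stood apart with 11896643. In that library 42.9% of the listed reads lay on no gene, against 17.5% to 28.2% elsewhere, and 33193 genes had a read, against 22192 to 25435. On the 16201 autosomal genes without a read in any other tumor it held 0.957 reads per kb of exon. A background of that height would be over 10% of its reads for 16 of the 34 tested collagen genes, but 0.143% for *Col1a1* and 0.0330% for *Col3a1*. Fold changes and counts of the main comparisons are therefore given over 10 tumors and over the 9 tumors without it. The 7 melanoma markers, such as *Pmel* and *Mlana*, were detected in 10 of 10 tumors and summed to 11282 to 21329 reads per 1000000 gene reads after TMM scaling (CPM).

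Collagen reads varied widely among tumors of the same group. Summed over the 44 genes, they came to 4033, 3907, 2067, 1681 and 7562 CPM in KO replicates 1 to 5 and to 8123, 400.2, 2585, 739.4 and 1820 CPM in NTC replicates 1 to 5. The KO values all lie within the NTC range, whose upper end is NTC replicate 1, with 3850 ± 2329 (SD, n = 5) in KO and 2733 ± 3135 (SD, n = 5) in NTC. Without NTC replicate 1 the NTC mean was 1386 ± 1003 (SD, n = 4). NTC replicates 2 and 4 were the lowest tumors and NTC replicate 1 and KO replicate 5 the highest. Collagen took 0.731% (95% Wilson interval 0.728% to 0.735%) of the gene reads in KO replicate 5 and 0.0427% (0.0420% to 0.0435%) in NTC replicate 2. These intervals cover counting error only. By this share NTC replicate 1, at 0.507%, lay below KO replicate 5. Its TMM factor was 0.628, against 0.968 to 1.11 elsewhere, and a low factor raises CPM.

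The 3 classes did not vary alike. The fibrillar sum was 2861, 2775, 1326, 1008 and 5739 CPM in KO tumors and 6342, 75.1, 1728, 290.4 and 1142 CPM in NTC tumors, an 84.4-fold range in the NTC group. The collagen IV sum lay between 292.5 and 361.1 CPM in KO tumors and between 183.2 and 402.6 CPM in NTC tumors. Collagen IV was therefore the steadier class, with a 1.23-fold range in KO and 2.20-fold in NTC. Fibrillar genes made up 60.0% to 75.9% of collagen reads in KO tumors. In NTC tumors the share was lowest in replicate 2, at 18.8% (95% Wilson interval 18.1% to 19.5%), and highest in replicate 1, at 78.1%. In NTC replicate 2 collagen IV held the larger share, 45.8%.

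**Figure D1:**
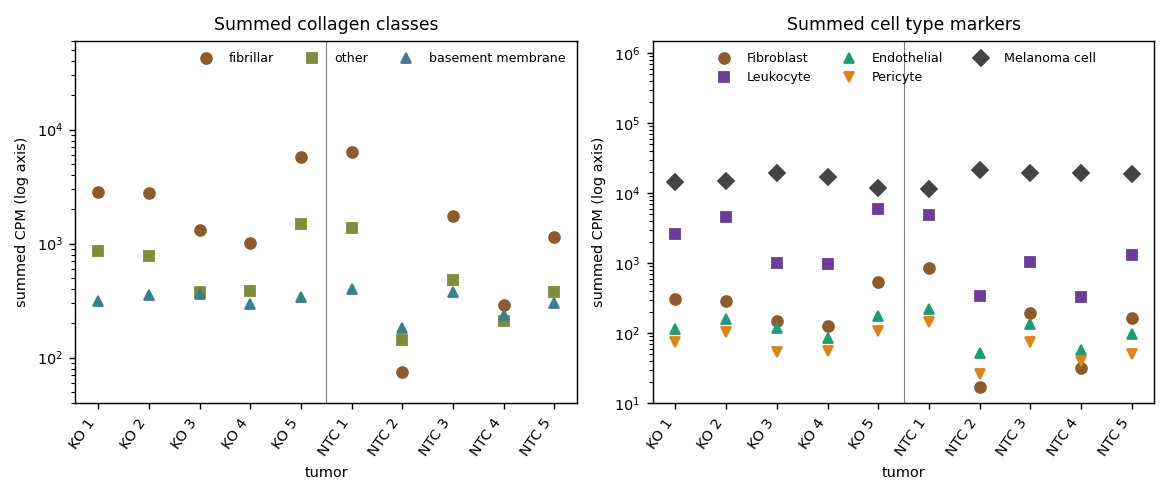
Summed CPM (log axis) of the collagen classes (left) and of cell type marker lists (right) in each of the 10 tumors, each point being 1 tumor. Fibrillar collagens span 75.1 to 6342 CPM and follow the fibroblast markers, while collagen IV stays between 183.2 and 402.6 CPM.

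The spread of single genes shows the same contrast. The SD of log2 CPM over the 10 tumors had a median of 1.23 in the 34 tested collagen genes and 0.33 in all 15821 tested genes, and 18 of the 34 lay above the 90th percentile of all genes (1.13). By class the median SD was 1.5 in fibrillar genes, 0.43 in collagen IV and 1.39 in the others. *Col16a1*, a collagen on fibril surfaces, was the steadiest at 0.18. NTC replicate 2 was the lowest tumor for 21 of the 34, against 15.1% of all tested genes, and NTC replicate 1 the highest for 15, against 21.1%.

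Divided by exon length, *Col3a1* had the highest level of the 44 genes, with a mean of 126 CPM per kb, and *Col1a1* followed with 46.7 and *Col1a2* with 38.5. *Col4a1* came next with 24.6, then *Col6a1* with 21.4, *Col5a2* with 18.7 and *Col4a2* with 16.0. This order holds for the mean over tumors and not in each tumor, since *Col3a1* alone ran from 2.51 to 390 CPM per kb. In NTC replicates 2 and 4 *Col4a1* stood above *Col3a1*, in the former at 11.9 against 2.51 CPM per kb. The 10 genes that did not pass the filter on low counts were *Col2a1*, *Col4a3*, *Col4a6*, *Col6a4*, *Col9a1*, *Col9a2*, *Col17a1*, *Col19a1*, *Col22a1* and *Col26a1*. *Col26a1* had 26 reads in NTC replicate 1 and 0 in the other 9 tumors, which allows up to 0.0946 to 0.133 CPM there (3 reads per library).

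No collagen gene was called between KO and NTC tumors by edgeR's quasi-likelihood test, that is, none had both a Benjamini-Hochberg adjusted p under 0.05 and an absolute log2 fold change above 1. Of all 15821 genes tested, 3 were called (0.0190%). At an unadjusted p under 0.05, 0 of the 34 were higher in KO, against 3.99% of all genes, and 1, *Col4a5*, was lower, against 4.85%. By edgeR, the log2 fold change was above 0 for 27 of the 34 (79.4%), with a median of 0.34 beside 0.01 over all genes. DESeq2 over the same tumors also called none of the 34, and called 0.609% of all genes.

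Without NTC replicate 1 the differences were larger. edgeR again called none of the 34 (0.106% of 16078 genes called), but 12 were higher at an unadjusted p under 0.05 (35.3%, against 12.0% of all genes), and *Col4a5* was lower (2.94%, against 8.10%). The 12 were *Col1a1*, *Col1a2*, *Col5a1*, *Col5a3*, *Col24a1*, *Col27a1*, *Col6a1*, *Col6a2*, *Col6a3*, *Col12a1*, *Col15a1* and *Col18a1*. By edgeR, the log2 fold change was above 0 for 30 of the 34, with a median of 1.06 beside -0.02 over all genes. DESeq2 without a filter called 1 of these genes over the 9 tumors, *Col5a1*, as higher in KO, beside 3.32% of all genes called higher and 0.731% called lower. The counts thus turn on 1 library. In bulk tumors, fewer cells of a type and less RNA per cell cannot be told apart.

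**Figure D2:**
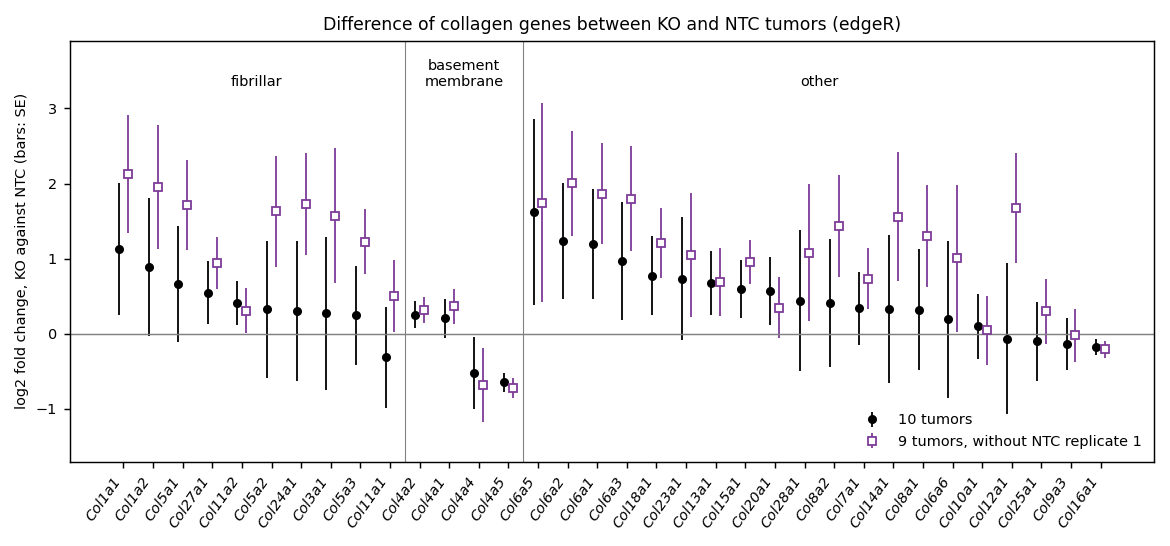
Log2 fold change of the 34 tested collagen genes, KO against NTC, by edgeR, with the standard error as bars, over 10 tumors (filled circles) and over 9 tumors without NTC replicate 1 (open squares). Fibrillar genes move from a median of 0.37 to 1.60, while the 4 collagen IV genes keep their values within their errors.

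Among the fibrillar collagens, 9 of 10 tested genes had a log2 fold change above 0 over 10 tumors (median 0.37) and 10 of 10 over 9 tumors (median 1.60). At an unadjusted p under 0.05, 0 and 6 of the 10 were higher, against 3.99% and 12.0% of all genes. *Col1a1* (chr11:94936224-94953042), the more abundant chain of collagen I, the main collagen of skin and bone, had 519.5, 430.7, 184.4, 144.8 and 819.6 CPM in KO tumors and 590.3, 9.16, 182.9, 46.0 and 136.5 CPM in NTC tumors. The NTC tumors reach both below and into the KO range, and 4 of the 5 lie under the KO mean of 420 ± 274 (SD, n = 5). Its log2 fold change was 1.13 (SE 0.88), with an edgeR adjusted p of 0.736, and without NTC replicate 1 it was 2.13 (SE 0.79, adjusted p = 0.201). It was 0.74 without KO replicate 5.

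*Col1a2* (chr6:4504814-4541544), its partner chain, had 680.4, 663.7, 294.7, 202.3 and 1262 CPM in KO and 1056, 14.2, 338.1, 57.7 and 212.7 CPM in NTC tumors. The order of the tumors is close to that of *Col1a1*, with NTC replicate 2 lowest and KO replicate 5 highest. By edgeR, the log2 fold change was 0.89 (SE 0.92, adjusted p = 0.803) and 1.96 (SE 0.83, adjusted p = 0.230) over 9 tumors, but 0.47 without KO replicate 5 and 0.58 without NTC replicate 2.

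*Col3a1* (chr1:45311538-45349706), which forms thin fibers in soft tissue and vessels, had 1279, 1374, 656.5, 500.5 and 2946 CPM in KO tumors and 3827, 24.6, 989.3, 121.8 and 639.6 CPM in NTC tumors. NTC tumors hold both ends of this 155-fold range in TMM-scaled CPM. The upper end of *Col3a1* rests on the low TMM factor of NTC replicate 1. Its log2 fold change was 0.27 (SE 1.01, edgeR adjusted p = 0.952) and became 1.57 (SE 0.90, adjusted p = 0.347) without NTC replicate 1. It turned to -0.22 without KO replicate 5, to -0.04 without NTC replicate 2 and to -0.02 without NTC replicate 4, so its direction rests on single tumors.

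Collagen V sits inside collagen I fibrils and limits their width, and its 3 chains had log2 fold changes above 0. *Col5a1* (chr2:27886425-28039514) had 110.2, 88.8, 47.6, 48.1 and 212.1 CPM in KO and 202.7, 6.83, 48.4, 20.9 and 44.2 CPM in NTC tumors. With NTC replicate 1 set aside, only 1 NTC tumor, replicate 3, lies above the lowest KO tumors. Between KO and NTC the log2 fold change was 0.66 (SE 0.77, edgeR adjusted p = 0.829), then 1.72 (SE 0.60, adjusted p = 0.190) over 9 tumors, where DESeq2 gave 1.75 (SE 0.55, adjusted p = 0.0333). In the other direction, edgeR gave 0.21 without KO replicate 5, 0.37 without NTC replicate 2 and 0.44 without NTC replicate 4.

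*Col5a2* lies beside *Col3a1* on chromosome 1 (chr1:45374321-45503282) and ran from 73.1 to 414.1 CPM in KO and from 8.96 to 548.1 CPM in NTC tumors. Its log2 fold change was 0.33 (SE 0.91, edgeR adjusted p = 0.936), 1.63 (SE 0.74, adjusted p = 0.252) without NTC replicate 1, -0.12 without KO replicate 5, 0.02 without NTC replicate 2 and 0.05 without NTC replicate 4. *Col5a3* ran from 22.5 to 72.1 CPM in KO and from 6.34 to 98.1 CPM in NTC tumors, with 0.24 (SE 0.66) over 10 and 1.22 (SE 0.43) over 9 tumors. The remaining tested fibrillar genes, *Col11a1*, *Col11a2*, *Col24a1* and *Col27a1*, stayed under 9 CPM in every tumor, and *Col11a1*, with 0.28 to 3.23 CPM, was the only fibrillar gene with a log2 fold change below 0 over 10 tumors (-0.31, SE 0.67). Over 9 tumors it was 0.50 (SE 0.47), and the background of NTC replicate 1 would be 50.8% of the 24 reads of *Col11a1* in that library.

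Of the 6 fibrillar and fibril-associated genes with a miR-25 seed match listed above, 4 had a log2 fold change above 0 over 10 tumors (median 0.61) and 6 over 9 tumors (median 1.70). Of the 28 tested collagen genes without a match, 23 and 24 were above 0, with medians of 0.33 and 1.03. At an unadjusted p under 0.05 over 9 tumors, 5 of the 6 and 7 of the 28 were higher in KO, against 12.0% of all genes. Over 10 tumors it was 0 of both, against 3.99%. The 6 genes include the 2 chains of collagen I, whose levels go together, so they are not independent of each other. All but *Col12a1* are fibrillar, a class in which 6 of 10 genes were higher at that p over 9 tumors. The match thus goes together with the class, and its part in the differences was not tested.

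**Figure D3:**
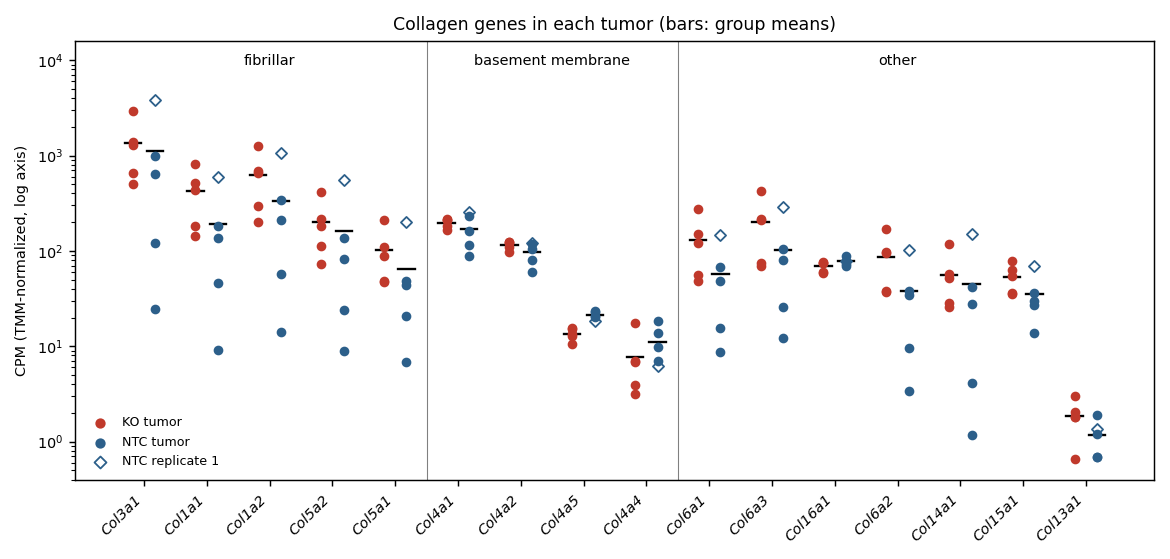
CPM (log axis) of 16 collagen genes in each tumor, by class, with KO tumors in red, NTC tumors in blue, NTC replicate 1 as an open diamond and group means as bars. Fibrillar genes and collagen VI spread widely in both groups, *Col4a1*, *Col4a2* and *Col16a1* spread little, and *Col4a5* is the only gene shown whose groups do not overlap.

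Collagen IV behaved otherwise. Its 4 tested chains had log2 fold changes of both signs, with a median of -0.16 over 10 tumors and -0.18 over 9 tumors. *Col4a5* (chrX:141475385-141689234) encodes a chain of the collagen IV of kidney and other specialised basement membranes. It had 15.2, 12.9, 15.5, 13.5 and 10.5 CPM in KO tumors and 18.2, 20.5, 20.9, 23.0 and 23.2 CPM in NTC tumors. All KO tumors thus lie below all NTC tumors, which held for 1.47% of all tested genes, while the reverse held for 0.866% of all genes and for none of the 34. The means were 13.5 ± 2.03 (SD, n = 5) and 21.2 ± 2.06 (SD, n = 5).

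The log2 fold change of *Col4a5* was -0.65 (SE 0.13), with an unadjusted p of 0.000466 and an edgeR adjusted p of 0.137 over all genes. Without NTC replicate 1 it was -0.72 (SE 0.13, adjusted p = 0.0751). DESeq2 gave adjusted p-values of 0.000735 over 10 tumors and 0.000126 over 9, with a fold under the threshold in both. Leaving out any 1 of the 10 tumors kept it between -0.72 and -0.57. *Col4a5* holds 3 matches to the miR-29 seed and none to that of miR-25.

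*Col4a1* (chr8:11198423-11312826), the main chain of common basement membranes, had 180.8, 212.6, 214.9, 164.3 and 208.7 CPM in KO tumors and 256.5, 88.6, 230.3, 115.6 and 161.5 CPM in NTC tumors. The KO tumors sit close together inside the NTC range, and NTC replicates 2 and 4 are lowest. By edgeR, the log2 fold change was 0.20 (SE 0.26, adjusted p = 0.845) and 0.37 (SE 0.24, adjusted p = 0.396) over 9 tumors, and 0.04 without NTC replicate 2.

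*Col4a2* (chr8:11312805-11449287), its partner, had 110.7, 124.5, 123.4, 97.1 and 120.3 CPM in KO tumors and 120.0, 60.0, 118.2, 80.2 and 104.3 CPM in NTC tumors. Again NTC replicates 2 and 4 are lowest. Between KO and NTC the log2 fold change was 0.26 (SE 0.18, edgeR adjusted p = 0.715) over 10 and 0.31 (SE 0.17, adjusted p = 0.330) over 9 tumors, and 0.12 without NTC replicate 2. The genes of collagen IV stand head to head in pairs. *Col4a1* and *Col4a2* overlap by 22 bases at their starts and run in opposite directions, and since the strand setting of the counting is not given, reads in the overlap cannot be assigned.

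*Col4a4* (chr1:82448423-82586849), a chain of the kidney type, had 6.97, 3.91, 6.87, 17.6 and 3.16 CPM in KO and 6.20, 13.8, 6.94, 18.3 and 9.89 CPM in NTC tumors. KO replicate 4 is the only KO tumor above 7 CPM. The log2 fold change was -0.52 (SE 0.48, edgeR adjusted p = 0.773), -0.68 (SE 0.49, adjusted p = 0.449) without NTC replicate 1, -1.08 without KO replicate 4, -0.33 without KO replicate 5 and -0.26 without NTC replicate 4. Its head-to-head neighbour *Col4a3*, 71 bases away, reached at most 1.75 CPM, in NTC replicate 1, and *Col4a6*, which lies 1308 bases from *Col4a5*, at most 0.23 CPM. Neither passed the filter, so the paired genes did not share a level.

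Collagen VI held the 4 largest log2 fold changes of the 20 other collagens tested over 10 tumors, although no test was passed. *Col6a1* (chr10:76708792-76726168) had 121.2, 148.8, 56.0, 48.8 and 274.0 CPM in KO tumors and 147.5, 8.60, 66.9, 15.4 and 48.0 CPM in NTC tumors. NTC replicates 2, 4 and 5 lie below the lowest KO tumor and the other 2 lie within the KO range. Between KO and NTC the log2 fold change was 1.19 (SE 0.73, edgeR adjusted p = 0.666) over 10 tumors and 1.86 (SE 0.67, adjusted p = 0.196) over 9.

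*Col6a2* (chr10:76595762-76623630), the next chain on the same chromosome, ran from 37.0 to 170.3 CPM in KO and from 3.41 to 102.6 CPM in NTC tumors, with a log2 fold change of 1.24 (SE 0.77, edgeR adjusted p = 0.674) and 2.00 (SE 0.70, adjusted p = 0.190). *Col6a3* (chr1:90765923-90843971) ran from 69.9 to 423.5 CPM in KO and from 12.3 to 287.6 CPM in NTC tumors, with 0.97 (SE 0.78, edgeR adjusted p = 0.747) and 1.80 (SE 0.70, adjusted p = 0.212). Without KO replicate 5, the highest tumor for these 3 genes, *Col6a1* had 0.73 and *Col6a3* 0.50. All 5 tested collagen VI genes had a log2 fold change above 0 over 10 and over 9 tumors. Of the rare chains, *Col6a5* had 12.1 CPM in KO replicate 1 and 0 reads in NTC replicate 2.

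Fibril-associated collagens went in no common direction. *Col14a1* (chr15:55307750-55520803), found on fibrils of skin and tendon, had 57.8, 51.8, 28.1, 25.7 and 117.0 CPM in KO and 151.3, 1.18, 41.4, 4.07 and 27.7 CPM in NTC tumors. In TMM-scaled CPM its ends are both NTC tumors, as with *Col3a1*, and the upper end rests likewise on the TMM factor of NTC replicate 1. The log2 fold change was 0.33 (SE 0.98, edgeR adjusted p = 0.938), 1.56 (SE 0.86, adjusted p = 0.332) without NTC replicate 1, -0.11 without KO replicate 5, 0.02 without NTC replicate 2 and 0.04 without NTC replicate 4.

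*Col16a1* (chr4:130047840-130099283) had 76.2, 58.7, 60.1, 73.9 and 74.1 CPM in KO and 77.9, 78.9, 73.7, 88.4 and 68.7 CPM in NTC tumors. It hardly differed among tumors in which *Col3a1* differed 155-fold, with a 1.51-fold range. Between KO and NTC the log2 fold change was -0.18 (SE 0.10, edgeR adjusted p = 0.655) and -0.21 (SE 0.12, adjusted p = 0.338) over 9 tumors. *Col12a1*, by contrast, ran from 36.2 to 204.9 CPM in KO and from 5.52 to 383.2 CPM in NTC tumors, with a log2 fold change of -0.06 (SE 1.00) over 10 tumors and 1.67 (SE 0.74) over 9.

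*Col15a1* (chr4:47208161-47313167), of vessel and muscle basement membranes, had 54.1, 62.7, 35.7, 35.9 and 77.7 CPM in KO and 70.2, 13.8, 36.0, 27.3 and 29.9 CPM in NTC tumors. Of the NTC tumors, replicates 2, 4 and 5 lie below all KO tumors. The log2 fold change was 0.60 (SE 0.38, edgeR adjusted p = 0.686) and 0.96 (SE 0.30, adjusted p = 0.174) without NTC replicate 1, and DESeq2 over 9 tumors gave 0.98 (SE 0.32, adjusted p = 0.0419), under the fold threshold. Without NTC replicate 2 edgeR gave 0.39. *Col18a1*, its relative and the source of endostatin, ran from 15.6 to 68.5 CPM in KO and from 7.98 to 43.2 CPM in NTC tumors, with 0.77 (SE 0.53) over 10 and 1.21 (SE 0.46) over 9 tumors. *Col13a1*, a transmembrane collagen, stayed under 3 CPM in every tumor, with a log2 fold change of 0.68 (SE 0.43, edgeR adjusted p = 0.676) and 0.69 (SE 0.45, adjusted p = 0.405) over 9 tumors, and 0.45 without KO replicate 5.

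Fibroblast markers varied along with most of the collagens. The 10 fibroblast markers, among them *Pdgfra*, *Dcn* and *Lum*, summed to 301.8, 286.1, 146.9, 125.0 and 535.4 CPM in KO and to 843.4, 17.0, 194.7, 32.2 and 164.2 CPM in NTC tumors. None was at 0 reads in any tumor, although their mean log2 CPM was -0.36 in NTC replicate 2 and 5.62 in NTC replicate 1. At an unadjusted p under 0.05, 0 of the 10 were higher in KO over 10 tumors (3.99% of all genes) and 2 over 9 tumors (12.0% of all genes), and edgeR called none, beside 0.0190% and 0.106% of all genes. Their median log2 fold change was 0.25 and 1.36, beside 0.37 and 1.60 for the fibrillar genes.

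Across the 10 tumors, log2 CPM of 23 of the 34 tested collagen genes was correlated positively with the mean log2 CPM of these markers at a Benjamini-Hochberg adjusted permutation p under 0.05, over 34 relations. The 23 were 7 of 10 fibrillar genes, 2 of 4 collagen IV genes and 14 of 20 others. For 5 of the 23 the adjusted p of rho was not under 0.05. Without the 2 tumors farthest from the median, NTC replicates 2 and 4, r stayed above 0.8 for 16 of the 23 and was lower for 7, down to 0.352 for *Col28a1*, from 0.853. Fibroblasts express many genes of both sets, and the values share each library's normalization. Only the fibroblast list was correlated with the collagens. The summed pericyte, endothelial and leukocyte markers were also lowest in NTC replicates 2 and 4 and highest in NTC replicate 1 and KO replicate 5. Whether the relation is particular to fibroblasts was not tested. *Col14a1* had r = 0.997 (adjusted permutation p = 6.8e-05, n = 10) with rho = 0.988 (adjusted permutation p = 0.000113), and *Col3a1* r = 0.995 (adjusted permutation p = 6.8e-05) with rho = 0.976 (adjusted permutation p = 0.000204). The smallest unadjusted p these permutations can give is 1e-05. Without the same 2 tumors r was 0.993 and 0.992, and without NTC replicate 1 it was 0.997 and 0.994.

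*Col1a1* had r = 0.973 (adjusted permutation p = 0.000102) with rho = 0.927 (adjusted permutation p = 0.000942), and 0.903 without the 2 farthest tumors. *Col4a1* had r = 0.926 (adjusted permutation p = 0.001) with rho = 0.709 (adjusted permutation p = 0.0490), but r was 0.624 without the 2 tumors, and for *Col4a2* it went from 0.912 (adjusted permutation p = 0.00197, with rho = 0.673 and adjusted permutation p = 0.0623) to 0.512. For these 2 genes the relation was thus much weaker without those tumors. *Col16a1* had r = -0.343 (adjusted permutation p = 0.378) with rho = -0.176 (adjusted permutation p = 0.694), and *Col4a5* r = -0.510 (adjusted permutation p = 0.166) with rho = -0.430 (adjusted permutation p = 0.257).

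One gene, *Col4a4*, was correlated negatively, with r = -0.750 (adjusted permutation p = 0.0175), rho = -0.794 (adjusted permutation p = 0.0162) and r = -0.669 without the 2 tumors. No correlation is given within a group, since each holds 5 tumors.

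**Figure D4:**
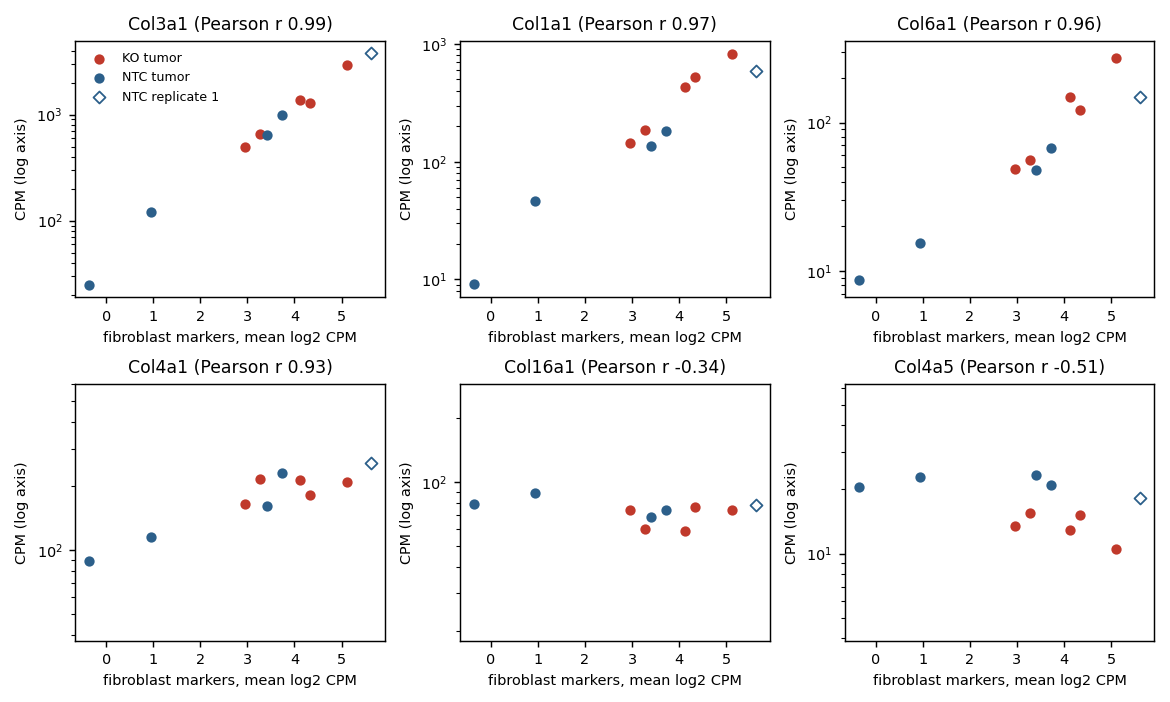
CPM of 6 collagen genes (log axis) against the mean log2 CPM of 10 fibroblast markers in each tumor, KO in red, NTC in blue and NTC replicate 1 as an open diamond. *Col3a1*, *Col1a1* and *Col6a1* follow the markers (r from 0.963 to 0.995), *Col16a1* does not (r = -0.343), and the KO tumors lie below the NTC tumors for *Col4a5*.

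Other marker lists varied too, and their counts at an unadjusted p under 0.05 stand beside 3.99% of all genes higher and 4.85% lower over 10 tumors, and 12.0% and 8.10% over 9. Leukocyte markers, such as *Ptprc* and *Csf1r*, summed to 978.0 to 5884 CPM in KO and 330.0 to 4794 CPM in NTC tumors, with 0 of 9 tested at an unadjusted p under 0.05 over 10 tumors and 7 of 9 higher over 9 tumors. Endothelial markers summed to 84.0 to 174.7 CPM in KO and 51.6 to 221.6 CPM in NTC tumors, with 0 of 8 higher over 10 and 1 over 9 tumors. Pericyte markers summed to 54.2 to 105.6 CPM in KO and 26.2 to 146.3 CPM in NTC tumors, with 2 and 3 of 6 higher. Of the 7 melanoma markers, 0 passed over 10 tumors and 2 were lower over 9. These lists thus overlap between the groups in their sums. Skeletal muscle markers reached 177.1 CPM in KO replicate 4 and 33.7 CPM in KO replicate 3, against 5.89 CPM or less elsewhere. Of the 6, 2 passed the count filter over 10 tumors and 4 over 9. Over 9 tumors *Myh4* passed only through KO tumors, with 57.0 CPM in KO replicate 4 and at most 0.03 in the NTC tumors. The filter fixes the direction of such a gene, so no count of higher muscle markers is given. Keratinocyte markers reached 19.9 CPM in KO replicate 3 and were at most 5.73 CPM elsewhere, and none was tested. Adipocyte markers ranged from 0.325 to 70.5 CPM, with 0 of 4 tested at an unadjusted p under 0.05. The part of these cells in the collagen differences was not tested.

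The SD of the log2 ratio over 10 tumors was 0.16 to 0.42 for 5 pairs of chains that assemble together, 0.37 for *Col18a1* to *Col15a1*, 0.46 for *Col3a1* to *Col1a1* and 1.54 for *Col4a1* to *Col1a1*. These SDs were not tested against each other. The ratio of *Col1a1* to *Col1a2*, in reads per kb, lay between 1.02 and 1.51 in the 10 tumors. That of *Col4a1* to *Col4a2* lay between 1.28 and 1.90, and its log2 value had an SD of 0.04 in KO and 0.26 in NTC tumors. *Col6a1* to *Col6a2* ran from 2.43 to 4.79, *Col6a3* to *Col6a1* from 0.493 to 0.714 and *Col5a1* to *Col5a2* from 0.404 to 0.988. *Col4a1* to *Col1a1*, which sets basement membrane against fibrillar collagen, ran from 0.224 in KO replicate 5 to 8.50 in NTC replicate 2.

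No ratio of the 8 compared differed between groups in a two-sided exact permutation test over the tumors, with adjusted p-values from 0.476 to 0.929 over the 8 pairs. The smallest p this test can give is 0.00794. For *Col4a1* to *Col1a1* the mean log2 ratio was -1.01 ± 0.99 (SD, n = 5) in KO and 0.61 ± 1.65 (SD, n = 5) in NTC tumors, a difference of -1.62 with an exact permutation p of 0.0952. Without NTC replicate 1 the difference was -2.12, with an exact permutation p of 0.0317 and 0.254 after adjustment, and without NTC replicate 2 it was -0.998. For *Col3a1* to *Col1a1* it was -0.35 (exact permutation p = 0.238), with ratios of 1.65 to 2.40 in KO and 1.77 to 4.33 in NTC tumors. *Col18a1* to *Col15a1* ran from 0.304 to 0.797.

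**Figure D5:**
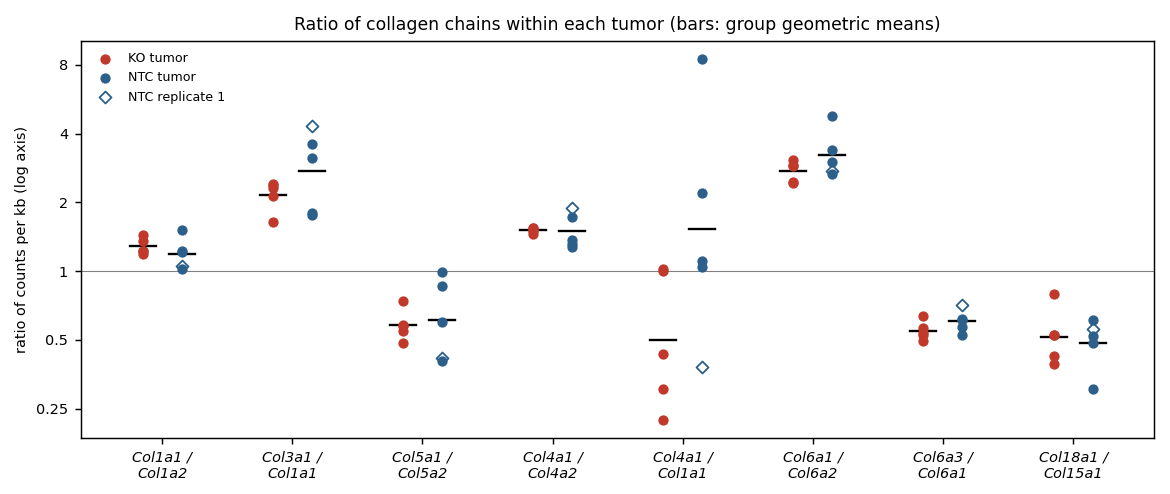
Ratio of reads per kb of exon (log axis) for 8 pairs of collagen chains in each tumor, KO in red, NTC in blue, NTC replicate 1 as an open diamond, with geometric means as bars. *Col1a1* to *Col1a2* spans 1.02 to 1.51, and *Col4a1* to *Col1a1* spans 0.224 to 8.50.

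Genes that modify, process, link or bind collagen were also compared. Of 58 such genes in 5 lists, 54 were tested and edgeR called 0 over 10 and 0 over 9 tumors. At an unadjusted p under 0.05, 2 were higher and 4 lower over 10 tumors, and 13 higher and 4 lower over 9. Over all genes the shares were 3.99% and 4.85% over 10 tumors and 12.0% and 8.10% over 9, so the 2 higher genes over 10 and the 4 lower over 9 lie near the background. The lists' medians were -0.09 for the enzymes and chaperones of the endoplasmic reticulum, 0.28 for propeptide processing, 0.25 for cross-linking, 0.15 for proteoglycans and other partners of fibrils and 0.25 for receptors. Over 9 tumors they were -0.10, 0.58, 0.83, 1.24 and 0.44.

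All genes lower at that p were on the list of enzymes and chaperones, *P4ha2*, *Fkbp10*, *Plod2* and *P4hb* over 10 tumors, and over 9 tumors the first 3 of these with *P3h3*, a prolyl 3-hydroxylase (-0.41, SE 0.13). *P4ha2*, a prolyl hydroxylase subunit, had 45.8, 32.5, 46.5, 49.1 and 34.9 CPM in KO and 75.6, 65.1, 63.9, 84.9 and 51.6 CPM in NTC tumors. All KO tumors of *P4ha2* thus lie below all NTC tumors, which held for 1.47% of all tested genes. Its log2 fold change was -0.71 (SE 0.16, edgeR adjusted p = 0.185) and -0.70 (SE 0.18, adjusted p = 0.136) over 9 tumors, where DESeq2 gave -0.69 (SE 0.20, adjusted p = 0.0169), under the fold threshold. *Fkbp10*, a chaperone of procollagen, had -0.34 (SE 0.11, edgeR adjusted p = 0.401), *Plod2*, a lysyl hydroxylase, -0.45 (SE 0.19, adjusted p = 0.506) and *P4hb*, the other prolyl hydroxylase subunit, -0.20 (SE 0.09, adjusted p = 0.541). Over 9 tumors these were -0.35, -0.54 and -0.22.

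*Colgalt1*, which adds galactose to hydroxylysine, had a log2 fold change of 0.48 (SE 0.17, edgeR adjusted p = 0.434), above 0 unlike these. Over 9 tumors edgeR gave 0.57 (SE 0.15, adjusted p = 0.142) and DESeq2 0.59 (SE 0.19, adjusted p = 0.0375), also under the fold threshold. Among the propeptide enzymes, the procollagen proteases *Adamts14* and *Adamts2* had 0.49 (SE 0.19, edgeR adjusted p = 0.499) and 0.91 (SE 0.83, adjusted p = 0.773), and *Tll1* had -0.62 (SE 0.69, adjusted p = 0.821). Without NTC replicate 1 these became 0.40, 1.88 (SE 0.71) and 0.12 (SE 0.54), so that *Tll1* took the other sign. The cross-linking enzymes *Loxl2*, *Loxl4* and *Loxl3* had -0.48 (SE 0.35), 0.67 (SE 0.55) and 0.25 (SE 0.22), with edgeR adjusted p-values of 0.723, 0.749 and 0.773. Over the 9 tumors they had -0.07 (SE 0.21), 0.83 (SE 0.56) and 0.44 (SE 0.16). Neither list thus had a gene past the threshold.

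Of the partners, *Hspg2* (perlecan), *Nid2* and *Sparc* had log2 fold changes of 0.36 (SE 0.22), 0.42 (SE 0.37) and -0.27 (SE 0.26), with edgeR adjusted p-values of 0.663, 0.765 and 0.786. Over the 9 tumors they had 0.51 (SE 0.18), 0.64 (SE 0.34) and -0.03 (SE 0.18). Of the receptors, *Lair1*, an inhibitory collagen receptor of leukocytes, had 81.7, 130.2, 35.2, 25.1 and 150.0 CPM in KO and 93.1, 11.9, 30.7, 10.2 and 40.2 CPM in NTC tumors. Its tumors are ordered much as the leukocyte markers are, and the part of leukocyte number was not tested. Its log2 fold change was 1.20 (SE 0.67, edgeR adjusted p = 0.639) and 1.82 (SE 0.60, adjusted p = 0.182) over 9 tumors, where DESeq2 gave 1.86 (SE 0.55, adjusted p = 0.0218). *Itga1* had 0.25 (SE 0.23, edgeR adjusted p = 0.774) and *Mrc2*, which takes up collagen, 0.70 (SE 0.78, adjusted p = 0.820). Over the 9 tumors they had 0.42 (SE 0.18) and 1.55 (SE 0.68).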

How the data were processed

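Total RNA of 10 tumors (5 KO, 5 NTC) was sequenced. The submitters' processing notes name FastQC, Trimmomatic, HISAT2, HTSeq and mm10, while the strand setting and annotation are not given in the sources used here. The authors deposited raw counts of reads per gene, without normalization. Rows that name no gene (35.3% to 64.1% of the listed reads) were left out.

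Counts were tested with edgeR 4.0.16 (R 4.3.3): the low-count filter of filterByExpr, TMM scaling, then the quasi-likelihood test, with Benjamini-Hochberg adjustment across all tested genes. CPM used TMM factors, and log2 CPM a prior count of 2. The SE of an edgeR fold change was derived from it and the F statistic. p-values measure the spread between these tumors. DESeq2 1.42.0 was an alternative. Ratios were tested by exact permutation and correlations with 100000 permutations, with scipy 1.17.1. GENCODE M21 (GRCm38) gave gene positions, exon lengths and 3′ UTRs, matching all 44 symbols, and RefSeq gave miRNAs and promoters.

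The collagen genes, classes, 8 marker lists and 5 pathway lists were chosen with earlier results of these data known. Named genes were those highest per kb in each class (4 fibrillar, the tested collagen IV genes, 6 others), the 3 with the lowest p in each direction, any called gene and any without overlap between groups, 16 in all, and the 3 with the lowest p in each pathway list. Further genes were named after their values were seen. Alternatives were RLE factors, other filters, robust dispersion, a replicate block, DESeq2, each tumor left out, another class for collagens XV and XVIII, and ratios without length. In simulated counts of 15581 genes, 169 of 200 genes with 4-fold changes were recovered and 3 unchanged genes called. The 200 were drawn from expressed genes in general. Collagen genes spread more among tumors (median SD of log2 CPM 1.23, against 0.33 in all tested genes), so this recovery need not hold for them. Reads carry no molecular identifiers.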

Additional observations from a re-analysis of the deposited data

Results flagged for a closer look

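Of 56 groups of 5 values tested for a single tumor far from the others, 9 held one. For normally distributed values chance gives about 1 in 20. These values were taken without logs and are skewed to the high side, so the 9 cannot be set against that rate. NTC replicate 1 was far above the other NTC tumors in 7 of them. Summed CPM in that tumor was 8123 for all collagen genes (others 400.2 to 2585), 6342 for fibrillar genes (75.1 to 1728) and 1379 for the other collagens (141.9 to 479.4). *Col3a1* stood at 3827 CPM (others 24.6 to 989.3), *Col5a2* at 548.1 CPM (8.96 to 135.3), *Col5a1* at 202.7 CPM (6.83 to 48.4) and *Col14a1* at 151.3 CPM (1.18 to 41.4). These values are not independent, since they share 1 library and the genes vary together. In NTC replicate 2 the ratio of *Col4a1* to *Col1a1* was 8.503, while the remaining NTC tumors had 0.382 to 2.21. In the KO group, *Col4a4* had 17.63 CPM in replicate 4, against 3.16 to 6.97 in the others. The same tumor had the highest skeletal muscle markers, at 177.1 CPM, and their part in this value was not tested.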

How the results depend on the processing

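The number of collagen genes called higher in KO was 0 in all fits but DESeq2 without a filter over 9 tumors, which called 1, *Col5a1* (log2 fold change 1.75). The same fit called 1 gene of the pathway lists, *Lair1*. Of all genes it called 3.32% higher and 0.731% lower, so neither count stands out from that share. The number higher at an unadjusted p under 0.05, 0 over 10 tumors, was 4 of 44 without a filter (9.09%, all genes 2.81%), 17 of 43 with DESeq2 over 9 tumors (39.5%, all genes 7.86%) and 0 to 12 when 1 tumor was left out (12 without NTC replicate 1, all genes 12.0%, and 1 without KO replicate 4, all genes 5.61%). The number lower, 1 over 10 tumors, was 2 without a filter (4.55%, all genes 6.02%) and 1 to 2 when 1 tumor was left out (all genes 3.57% to 8.10%). The median log2 fold change of the tested fibrillar genes was 0.05 to 1.60 with 1 tumor left out and 1.64 with DESeq2 over 9 tumors. That of the other collagens was 0.16 to 1.06 (highest without NTC replicate 1) and 1.11 with DESeq2 over 9 tumors. That of collagen IV was -0.20 to -0.07, but 0.23 with collagens XV and XVIII counted in. With the replicate block the medians were 1.12, 0.75 and -0.18 for fibrillar, other and collagen IV genes, and no count of calls moved. The correlations of deviations between tumors of the same number ran from -0.29 to 0.63, with 2 of the 5 under 0.1, so the numbers were not taken to pair the tumors. With 1 tumor left out the log2 fold change ran from -0.22 (without KO replicate 5) to 1.57 (without NTC replicate 1) for *Col3a1*, from -0.11 to 1.56 for *Col14a1* and from -0.12 to 1.63 for *Col5a2*, with the same tumors at both ends. The differences in chain ratios, none past the threshold, ran from -0.070 to 0.20 for *Col18a1* to *Col15a1*, from -0.23 to 0.093 for *Col5a1* to *Col5a2* and from -0.046 to 0.10 for *Col4a1* to *Col4a2*. The cause of these moves was not tested. Of the values of named genes under all alternatives, 266 kept direction and call, 5 reversed and 1, *Col5a1* with DESeq2, passed both the adjusted p and the fold threshold. *Col4a5* with DESeq2 over 10 and 9 tumors and *Col15a1* over 9 passed the adjusted p alone. Genes under about 1 CPM rest on few reads, and values of NTC replicate 1 rest on fewer reads than the others.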
